A study of Homo sapiens with 6 samples.

Results

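The 9 genes described here act in the p53, integrated stress and unfolded protein responses. An entry in at least 1 of 4 lists of chromatin peaks lay at 6 of them. Single lists had one at 0.389% to 11.6% of all protein-coding genes. The share over any list, the one that matches this count, is at least 11.6% and was not counted. The 9 genes are BAX, CDKN1A and PHLDA3 of the p53 response, DDIT3, ATF4 and ASNS of the integrated stress response, and DNAJB9, HSPA5 and XBP1 of the unfolded protein response. They are out of 20037 protein-coding genes on chromosomes 1 to 22, X and Y. For each gene, the entries whose summit lay inside it or within 3 kb of its start or end were taken, and otherwise the nearest entry. The genes were chosen by measured values of these same lists, with entries such as that at BAX already seen, so counts over the 9 are given as a description and no test was made on them.

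The lists come from human prostate cancer cell lines, LNCaP, which responds to androgen, and PC3, which grows without it. The groups were a PRMT5 antibody, a METTL3 antibody and a control in LNCaP, and the same 3 in PC3, with 1 library each and 6 in all. PRMT5 is an arginine methyltransferase of histones and splicing proteins, and METTL3 is the catalytic subunit of the writer of N6-methyladenosine on RNA. In the assay, an antibody on permeabilised cells held on beads brings a Tn5 transposase to its target, which cuts and tags the chromatin there. Each library came from 100000 cells and 16 cycles of PCR, and no treatment or genetic change is given for the cells of any group. Each antibody library was called against the control library of its own line, titled IgG, whose antibody field names a secondary antibody. An entry carries a fold over the expected control signal and a −log10 q, both the authors' own values. Entries are named for the antibody used, and whether the named protein itself sat at an entry was not tested. A group is 1 library, so there is no replicate error to set beside any value.

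The p53 protein, switched on by DNA damage, activates genes that stop the cell cycle or start apoptosis. In the integrated stress response, kinases that sense amino acid shortage, misfolded proteins in the endoplasmic reticulum and other stresses phosphorylate the initiation factor eIF2, most translation slows, and translation of ATF4 rises. In the unfolded protein response, sensors in the endoplasmic reticulum membrane raise chaperone production through factors that include XBP1. LNCaP cells carry wild-type p53, whereas PC3 cells lack a functional p53 protein.

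The sequences around the start sites are given for 5 of the genes. They are RefSeq promoter windows of GRCh38.p14, 250 bases before and 50 bases from the start site, which the table gave for 8 of the 9 genes. BAX and DNAJB9 are shown because both had PRMT5 entries over copies of the E-box CACGTG, the core sequence bound by basic helix-loop-helix factors of the MYC, USF and TFE families. ATF4 is shown because it holds an E-box and had no entry, DDIT3 because it had entries and holds no E-box, and HSPA5 because it holds the endoplasmic reticulum stress element (ERSE) and had no entry. Capitals mark the E-box in BAX (chr19:48954625-48954924, plus strand), DNAJB9 (chr7:108569624-108569923, plus strand) and ATF4 (chr22:39520309-39520608, plus strand), the CCAAT box on either strand in DDIT3 (chr12:57520465-57520764, minus strand) and the ERSE in HSPA5 (chr9:125241294-125241593, minus strand).
BAX: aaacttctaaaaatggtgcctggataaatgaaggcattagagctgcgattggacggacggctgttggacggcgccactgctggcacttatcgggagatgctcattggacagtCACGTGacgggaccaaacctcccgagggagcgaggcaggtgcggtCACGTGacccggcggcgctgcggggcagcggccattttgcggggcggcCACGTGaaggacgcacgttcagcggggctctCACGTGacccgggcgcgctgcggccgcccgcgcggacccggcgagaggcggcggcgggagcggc
DNAJB9: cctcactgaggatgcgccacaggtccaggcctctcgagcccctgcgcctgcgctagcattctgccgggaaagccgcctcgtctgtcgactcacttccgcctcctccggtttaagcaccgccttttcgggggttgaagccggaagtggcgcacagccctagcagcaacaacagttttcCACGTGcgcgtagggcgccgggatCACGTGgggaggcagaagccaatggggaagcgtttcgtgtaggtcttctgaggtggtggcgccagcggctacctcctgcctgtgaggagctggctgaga
ATF4: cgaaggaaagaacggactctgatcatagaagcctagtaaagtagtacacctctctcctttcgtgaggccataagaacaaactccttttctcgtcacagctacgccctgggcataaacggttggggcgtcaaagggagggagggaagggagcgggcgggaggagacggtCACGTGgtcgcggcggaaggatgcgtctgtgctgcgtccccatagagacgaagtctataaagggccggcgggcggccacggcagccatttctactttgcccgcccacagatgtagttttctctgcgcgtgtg
DDIT3: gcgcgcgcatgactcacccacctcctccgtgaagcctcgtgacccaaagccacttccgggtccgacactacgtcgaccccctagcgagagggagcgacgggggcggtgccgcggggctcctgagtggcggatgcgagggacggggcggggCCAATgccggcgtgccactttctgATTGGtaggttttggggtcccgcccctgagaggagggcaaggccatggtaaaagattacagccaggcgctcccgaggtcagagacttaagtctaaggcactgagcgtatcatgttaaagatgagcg
HSPA5: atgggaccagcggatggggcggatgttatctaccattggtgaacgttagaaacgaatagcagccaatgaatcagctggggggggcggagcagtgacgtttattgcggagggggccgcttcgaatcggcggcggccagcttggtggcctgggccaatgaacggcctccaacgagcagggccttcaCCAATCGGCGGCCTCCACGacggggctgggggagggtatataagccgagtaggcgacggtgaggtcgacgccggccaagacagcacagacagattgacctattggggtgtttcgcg

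PRMT5 entries lay at 3 of the 9 genes in LNCaP and at 5 in PC3. BAX, DDIT3 and DNAJB9 had one in both lines, and CDKN1A and PHLDA3 in PC3. METTL3 entries lay at none of the 9 in LNCaP and at ASNS in PC3. ATF4, HSPA5 and XBP1 had an entry in no list. By the same rule, 3.08% of protein-coding genes had an entry in the LNCaP PRMT5 list, 4.59% in the PC3 PRMT5 list, 0.389% in the LNCaP METTL3 list and 11.6% in the PC3 METTL3 list, and 1.39% had one in both PRMT5 lists. Because the genes were chosen with these lists known, nothing is read from the difference. The read depth of the libraries is unknown, so the lack of an entry says only that the caller reported none.

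**Figure D1:**
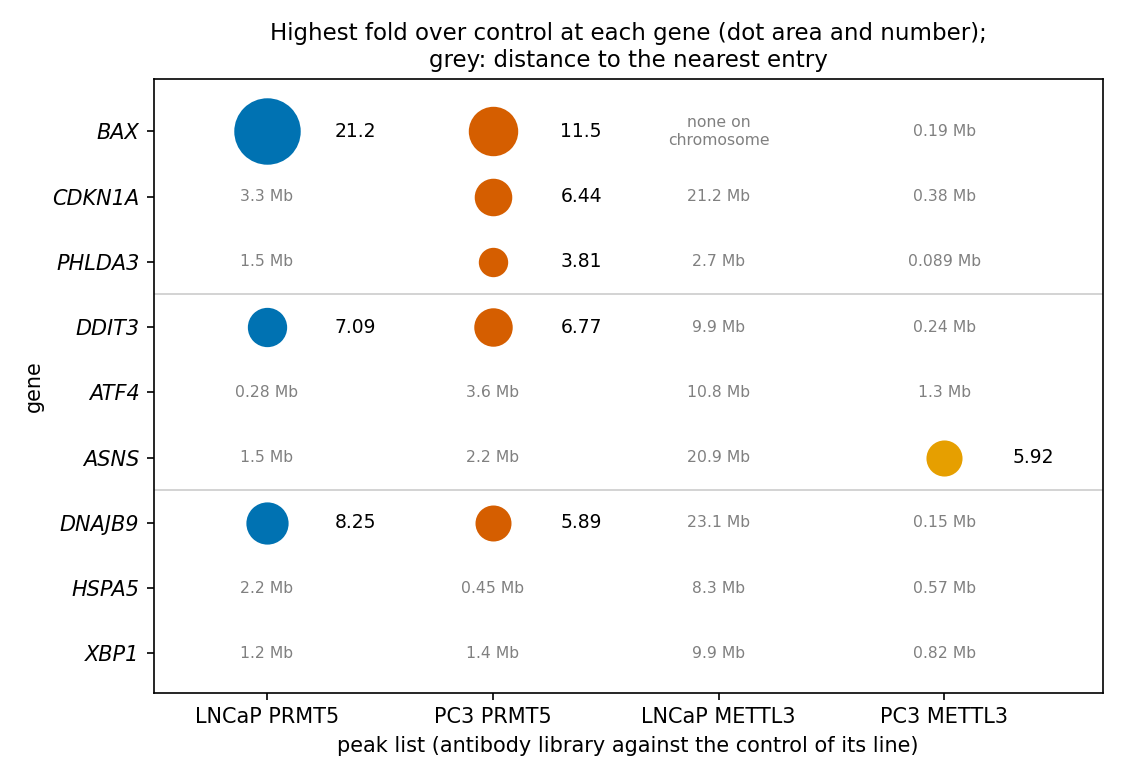
Highest fold over the control at each of the 9 genes (rows, grouped as p53, integrated stress and unfolded protein response) in the 4 lists (columns); dot area and the number beside it give the fold, and grey text gives the distance to the nearest entry where the gene had none. BAX has the largest dots, 21.2 in LNCaP PRMT5 and 11.5 in PC3 PRMT5, and the LNCaP METTL3 column holds no dot.

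BAX, a BCL2-family protein that opens the outer mitochondrial membrane in apoptosis, carried the highest fold of the 9 genes in both PRMT5 lists. In LNCaP its entry spanned chr19:48954441-48955143 (hg38), was 703 bp wide and had a fold of 21.2 and a −log10 q of 37.3. That fold ranked 20 among the 980 entries of the list, with 98.0% of entries lower. In PC3 the entry at the start site spanned chr19:48954471-48954993, was 523 bp wide and had a fold of 11.5 and a −log10 q of 21.6, rank 66 of 1661. All 523 bp of the PC3 entry lay inside the LNCaP entry. The summits were 115 bp upstream of the start site in LNCaP and 31 bp upstream in PC3, 84 bp apart. Both summits thus lay within the stretch that holds the 4 E-boxes shown above.

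PC3 had a further PRMT5 entry inside BAX, at chr19:48955254-48955616, 524 bp past the start site, with a fold of 5.89 and a −log10 q of 3.30. The LNCaP entry did not reach it. Another 42 entries of the PC3 PRMT5 list carried exactly this fold and −log10 q. No other gene of any type held these 3 summits or had an end within 3 kb of them. No METTL3 entry lay on chromosome 19 in LNCaP, and the nearest one in PC3 was 194 kb away.

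The p53 targets CDKN1A and PHLDA3 had PRMT5 entries in PC3, away from their start sites. CDKN1A, which encodes the cyclin-dependent kinase inhibitor p21, had an entry inside the gene at chr6:36680340-36680521 with a fold of 6.44 and a −log10 q of 5.54. Its summit was 1.76 kb downstream of the start site in the promoter table and 4.01 kb from the nearer outer end of the gene, since the listed span of the gene begins upstream of that start site. DINOL, a long noncoding RNA gene induced by DNA damage, starts 1.91 kb from the same summit on the opposite strand. In LNCaP the nearest PRMT5 entry was 3.26 Mb from CDKN1A.

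PHLDA3, a p53-induced repressor of the kinase AKT, had its PC3 PRMT5 entry 2.43 kb beyond its lower-coordinate end, at chr1:201461733-201461958. Its fold of 3.81 and −log10 q of 3.21 were the lowest of the 9 PRMT5 entries at these genes, and 9.57% of the PC3 list had a lower fold. The gene's strand is not in the tables used here. The nearest LNCaP PRMT5 entry was 1.46 Mb away. Of the genes with an entry within 3 kb, PHLDA3 and ASNS lay closest to that limit, and the nearest entry outside it was 88.9 kb from PHLDA3, in the PC3 METTL3 list.

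**Figure D2:**
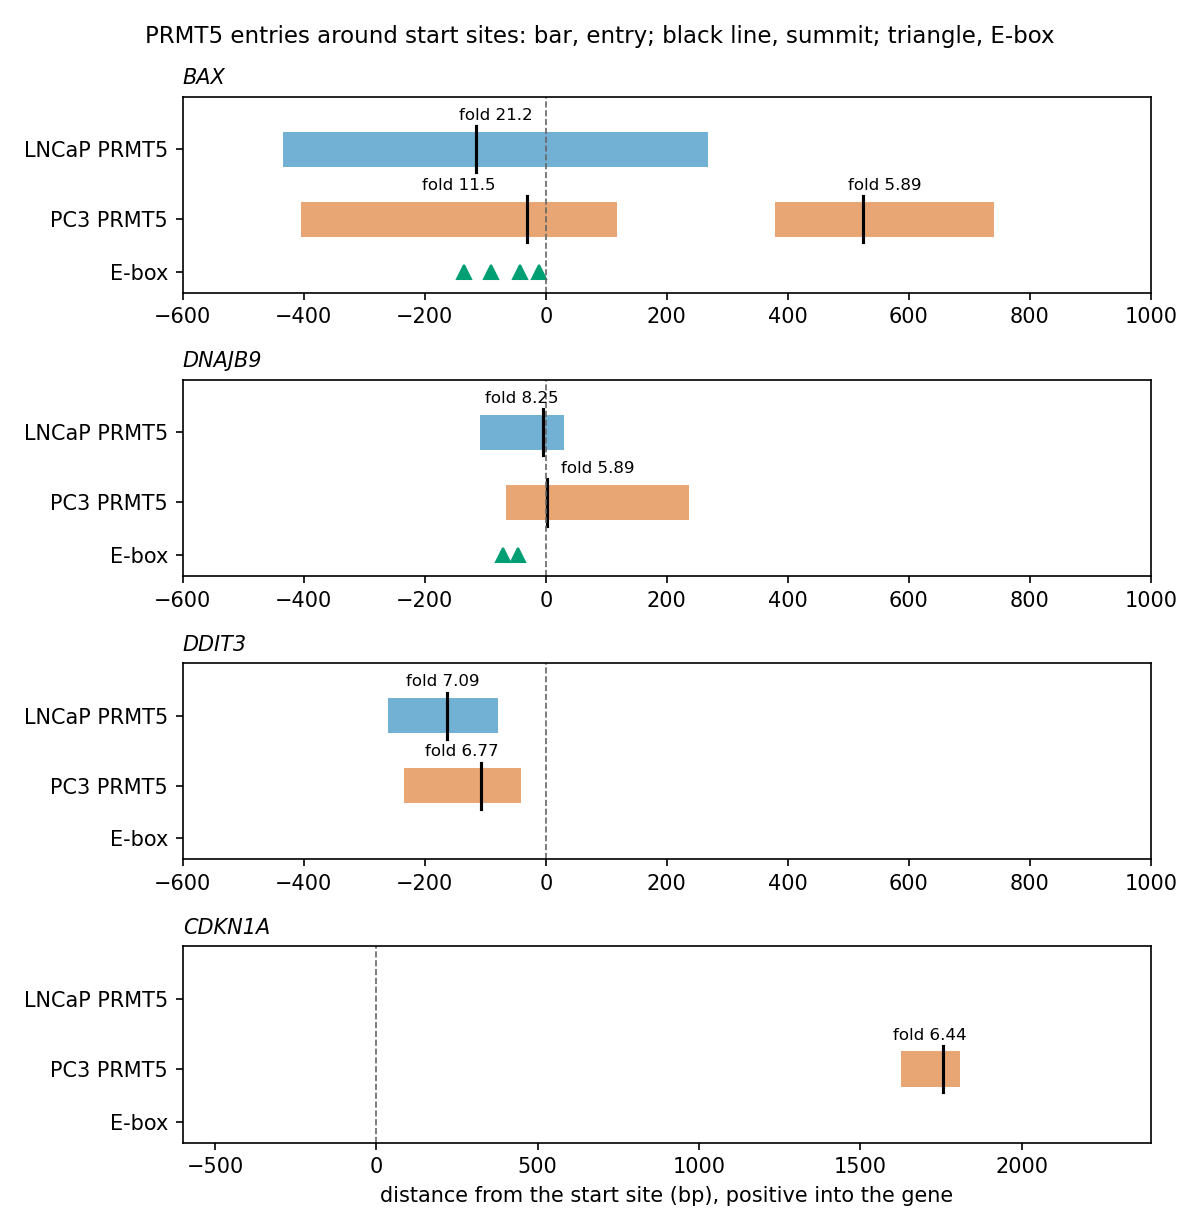
PRMT5 entries (bars, with the summit as a black line) in LNCaP (upper row of each panel) and PC3 (lower row) against distance in bp from the start site, with E-boxes of the promoter window as triangles. At BAX, DNAJB9 and DDIT3 the bars of the lines overlap at or just upstream of the start, and at CDKN1A the PC3 bar stands alone with its summit 1755 bp into the gene.

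DDIT3 encodes CHOP, a transcription factor that ATF4 induces and that promotes cell death under lasting stress. Its LNCaP PRMT5 entry, chr12:57520596-57520778, had a fold of 7.09 and a −log10 q of 6.38. Its PC3 PRMT5 entry, chr12:57520558-57520752, had a fold of 6.77 and a −log10 q of 5.44, values shared with 27 other entries of that list. The entries shared 157 bp, and their summits lay 164 bp and 107 bp upstream of the outer start site. MBD6, which encodes a methyl-CpG-binding domain protein, begins 198 bp from the start of DDIT3, and its near end was 34 bp from the LNCaP summit and 91 bp from the PC3 summit. The start site that the promoter table lists for MBD6 lies farther in, 2143 bp from the LNCaP summit and 2200 bp from the PC3 summit. LOC128125814, which lies inside DDIT3, starts 201 bp and 144 bp from the same summits.

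ATF4, the transcription factor at the centre of the integrated stress response, had its nearest PRMT5 entry at 279 kb in LNCaP and at 3.56 Mb in PC3. ASNS encodes asparagine synthetase, a target of ATF4 during amino acid shortage. Its PC3 METTL3 entry lay 2.70 kb beyond the 3-prime end, at chr7:97848791-97849082, 23.2 kb from the nearer start site. That entry had a fold of 5.92 and a −log10 q of 4.24, values that 398 other entries of the list also had, and its width of 292 bp was the median of the list. The nearest PRMT5 entries to ASNS were at 1.53 Mb in LNCaP and 2.16 Mb in PC3.

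DNAJB9 encodes ERdj4, a co-chaperone of the endoplasmic reticulum that the IRE1 and XBP1 branch induces. Its summits sat on the start site, 5 bp upstream in LNCaP and 2 bp downstream in PC3, 7 bp apart. The LNCaP entry, chr7:108569765-108569904, had a fold of 8.25 and a −log10 q of 9.20. The PC3 entry, chr7:108569809-108570111, had a fold of 5.89 and a −log10 q of 3.30, the same pair of values as the second BAX entry. They shared 96 bp, 68.6% of the LNCaP entry and 31.7% of the PC3 entry. THAP5, which encodes a zinc finger protein, starts 106 bp away on the opposite strand, so DNAJB9 and THAP5 share these entries and the E-boxes there. The LNCaP entry covered both E-boxes, and the PC3 entry only that at chr7:108569825-108569830.

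HSPA5 encodes BiP, the main chaperone of the endoplasmic reticulum, and XBP1 the transcription factor that IRE1 activates by splicing its mRNA. Their nearest PRMT5 entries in LNCaP were at 2.16 Mb for HSPA5 and 1.19 Mb for XBP1. In PC3 they were at 0.452 Mb for HSPA5 and 1.40 Mb for XBP1. METTL3 entries were no closer than 88.9 kb to the 8 other genes in PC3, and no closer than 2.73 Mb to the 8 genes that share a chromosome with one in LNCaP.

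Summits within 250 bp of a listed start site were counted as a stricter measure, over the 15843 protein-coding genes in the promoter table. BAX, DDIT3 and DNAJB9 met it, 3 of the 8 genes in the table in each line. The single-line shares were 1.06% of all genes in LNCaP and 0.833% in PC3, and the share in both lines was not counted. The genes were chosen with these lists known, so nothing is read from the difference. At all 3 the entries of the lines also overlapped, which 1.14% of all protein-coding genes had. Among the 278 genes with an entry in both PRMT5 lists, the set these 3 belong to, the entries overlapped in 82.4%. The median of the highest fold was 8.14 in LNCaP and 6.77 in PC3 over those genes, so BAX was above both medians. DNAJB9 was close to the first and below the second, and DDIT3 below the first and level with the second. Folds of the lines were called against different controls and are set side by side without a comparison.

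**Figure D3:**
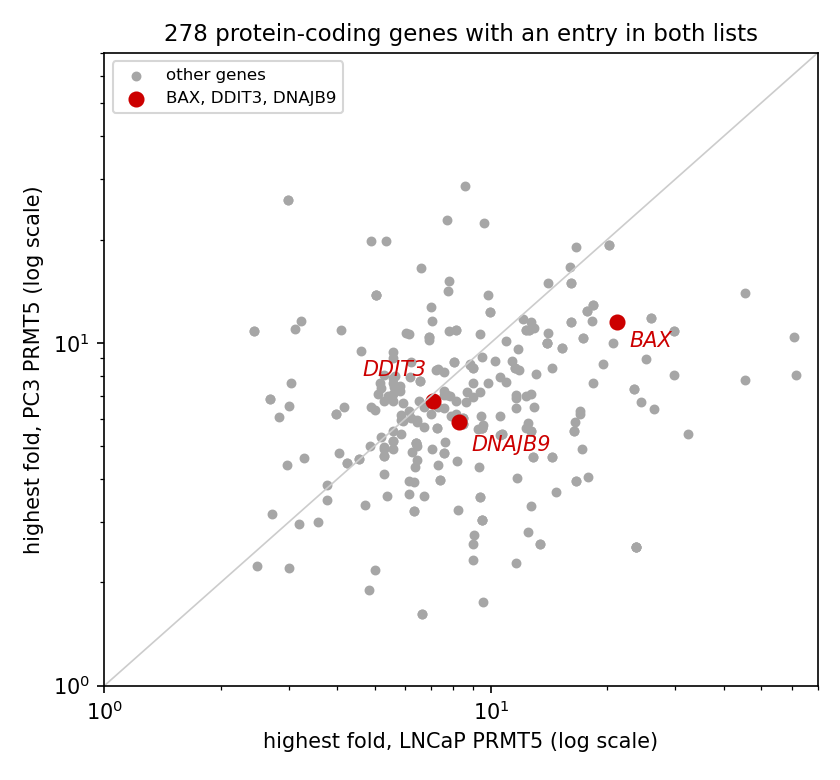
Highest fold in LNCaP PRMT5 (horizontal, log scale) and PC3 PRMT5 (vertical, log scale) at the 278 protein-coding genes with an entry in both lists; the grey line marks equal folds. BAX lies at 21.2 and 11.5, to the upper right of most genes, while DDIT3 (7.09 and 6.77) and DNAJB9 (8.25 and 5.89) lie in the main body.

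Among the genes whose pair of folds was nearest to that of BAX, by distance on the log2 scale over both lines, were DNAAF5, AGRP, ATP6V0D1 and SGTA. DNAAF5, a dynein assembly factor gene, had folds of 18.3 in LNCaP and 11.6 in PC3, and SGTA, a cochaperone gene, had 17.7 and 12.4. AGRP and ATP6V0D1 are neighbours on the same entries, with 18.4 and 12.9. ATP6V0D1 encodes a subunit of the vacuolar proton pump and AGRP a neuropeptide. By rank among the 278 genes, BAX was at 20 in LNCaP and 36 in PC3.

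**Figure D4:**
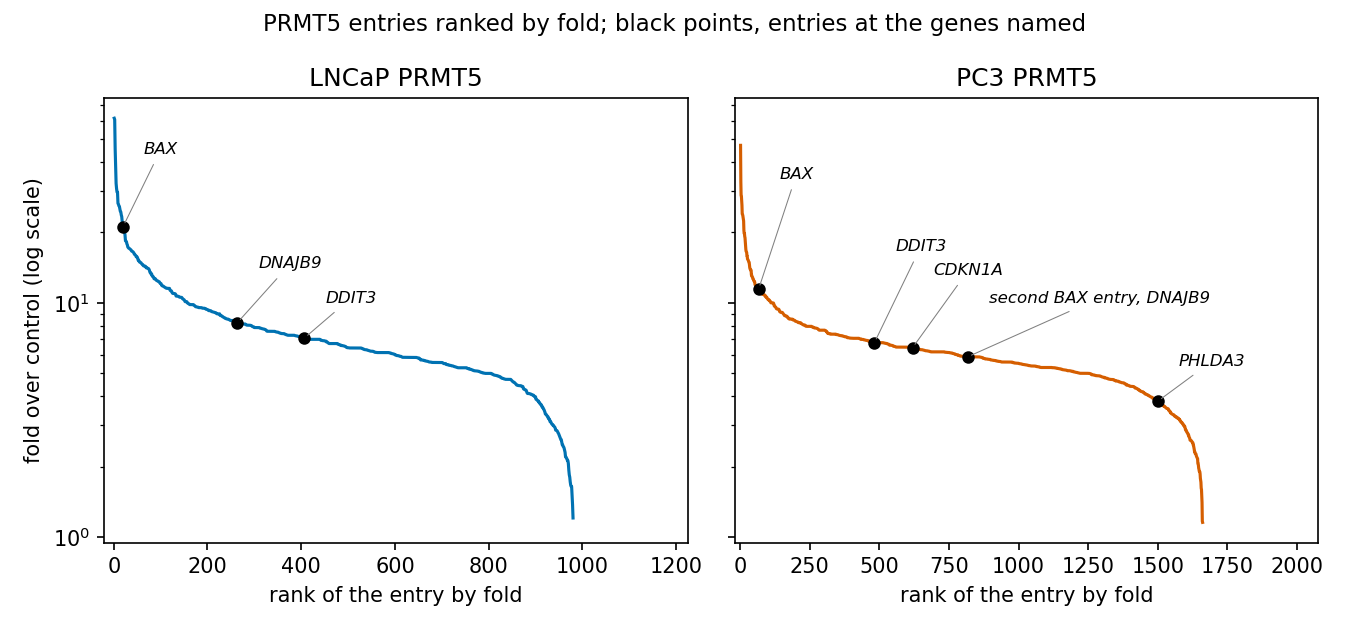
Entries of the LNCaP PRMT5 list (980) and the PC3 PRMT5 list (1661) in order of fold (log scale), with the entries at the named genes as black points. BAX sits near the steep start of both curves, at ranks 20 and 66, the DDIT3, DNAJB9 and CDKN1A entries lie along the flat middle, and PHLDA3 lies at rank 1501 of PC3.

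The promoter windows of BAX, DNAJB9 and ATF4 hold E-boxes, and those of DDIT3, CDKN1A, ASNS, HSPA5 and XBP1 hold none. The motifs searched on both strands were the E-box CACGTG, its flanked form TCACGTGA, the cAMP response element TGACGTCA, the unfolded protein response element core TGACGTGG, the amino acid response forms TGATGCAA and TGATGAAA, the ERSE, the CCAAT box CCAAT, the GC box GGGCGG, the TATA box TATAAA, the ETS core CCGGAA and the p53 consensus with up to 2 mismatches. The flanked form contains the E-box, and the ERSE contains the CCAAT box. BAX holds 4 E-boxes, starting 138, 93, 45 and 14 bp before the start site, and 3 of them have the full TCACGTGA. The LNCaP summit lay between 2 E-boxes, 20.5 and 24.5 bp from their centres. The PC3 summit also lay between 2, at 11.5 and 19.5 bp. With E-boxes this close together, any summit among them is near an E-box. DNAJB9 holds 2 E-boxes, starting 73 and 49 bp before the start site, the nearer centred 41.5 bp from the LNCaP summit and 48.5 bp from the PC3 summit. ATF4 holds 1, starting 82 bp before its start site.

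Of the 35116 promoters in the table, which cover 27305 genes, 7.26% hold an E-box, 0.664% hold at least 2 and 0.0142% hold at least 4. The last are 5 promoters, named after their values were seen: those of BAX, LAMP1, RAD9A, AMDHD2 and SLC25A31. LNCaP PRMT5 summits lay in 4 of them and PC3 PRMT5 summits in 3, BAX among both, and SLC25A31 had neither. Of the promoters with a PRMT5 summit inside the window, 160 of 199 held an E-box in LNCaP, 80.4%, and 114 of 156 in PC3, 73.1%. The flanked form was in 0.980% of all promoters, in 39.7% of those with a LNCaP summit and in 42.3% of those with a PC3 summit. These shares are descriptions without a test. Whether they come with PRMT5 itself or with another target of the antibody cannot be told apart from peak lists, and neighbouring promoters can share a summit.

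The share of promoters with a summit was higher with more E-boxes in both lines. BAX and DNAJB9 are themselves counted in these shares, as is THAP5, which has its summits in common with DNAJB9. Whether E-boxes bear on which of the genes had an entry was not tested. With 3 or more E-boxes, as in BAX, 21 of 33 promoters had a LNCaP summit, 63.6%, and 54.5% a PC3 summit. With 2, as in DNAJB9, the shares were 29.5% of 200 promoters in LNCaP and 22.0% in PC3. With 1, as in ATF4, they were 3.46% of 2315 promoters in LNCaP and 2.25% in PC3. With none they were 0.120% and 0.129% of 32568 promoters. These were 39 of the 199 promoters with a LNCaP summit and 42 of the 156 with a PC3 summit. DDIT3, with 2 listed windows, was among them in both lines.

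**Figure D5:**
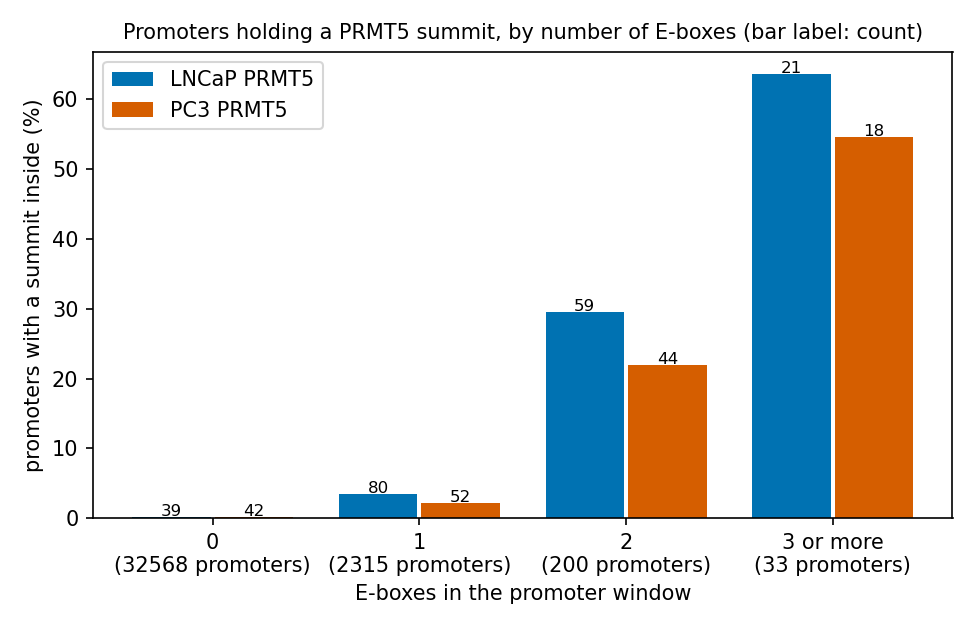
Share of RefSeq promoter windows that hold a PRMT5 summit (vertical, percent) by the number of E-boxes in the window (horizontal), for LNCaP (left bar) and PC3 (right bar), with the count of such promoters above each bar. The share is 0.120% in LNCaP and 0.129% in PC3 with no E-box, and 63.6% and 54.5% with 3 or more, the group of BAX.

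Base composition differed between promoters with a summit and all promoters, and its part in the E-box shares was not tested beyond the following values. The median GC content was 66.3% in promoters with a LNCaP PRMT5 summit and 66.0% with a PC3 one, against 58.7% in all, with medians of 28, 27 and 14 CpG. BAX has 67.3% GC and 38 CpG, and DNAJB9 63.7% and 24. Among promoters with at least 20 CpG, a limit set after the motif counts were seen, an E-box was in 82.5% of those with a LNCaP summit and 76.6% of those with a PC3 summit, against 10.2% of all 14454. Of the other genes, ATF4 has 57.3% GC and holds an E-box. HSPA5, DDIT3 and CDKN1A, with 61.3%, 63.3% and 74.3% GC, hold none. The windows of XBP1, with 68.7% and 70.3%, and of ASNS, with 65.3% and 69.7%, also hold none. These few windows are given as a description only.

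Stress motifs were also found at genes without PRMT5 entries. The ERSE, found in 0.0769% of all promoters, was in HSPA5 and XBP1. Of the promoters with a summit, 3 of 199 held it in LNCaP, 1.51%, and 1 of 156 in PC3, 0.641%. These counts are too small to compare. TGATGAAA was in the ASNS promoter. No promoter window of the 8 genes held the p53 consensus, the cAMP response element or TGACGTGG, which says only that these letters are not in these windows.

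Other genes of the same pathways were counted from 3 lists, with the 9 genes left out. Some genes are in more than 1 of these lists. Of 47 integrated stress and unfolded protein response genes, 3 had a PRMT5 entry in LNCaP, against 3.08% of all protein-coding genes, and 2 in PC3, against 4.59%. These counts are small and were not tested. In LNCaP they were CALR, which encodes the chaperone calreticulin, with a fold of 10.6, and HSP90B1 and PDIA4, which encode a chaperone and a protein disulfide isomerase of the endoplasmic reticulum, each with 6.43. Their summits lay 243, 149 and 217 bp upstream of the start sites. The HSP90B1 and PDIA4 entries also had the same −log10 q of 3.98, a pair of values found at further entries of the list. The CALR and HSP90B1 promoters hold 1 and 2 ERSE, and HSP90B1 also holds 1 E-box. The PDIA4 promoters hold neither motif. In PC3, PPP1R15A, which encodes the GADD34 subunit that reverses eIF2 phosphorylation, had a fold of 15.3 at a summit inside the gene, 2.88 kb past its start. The strongest PC3 entry counted for CALR, with a fold of 6.12, lay 7178 bp past its start site and 1298 bp from the nearer end of the gene.

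The p53 and apoptosis lists were counted in the same way. Of 30 other p53 pathway genes, 1 had a PRMT5 entry in LNCaP, where 3.08% of all genes did, and none in PC3, where 4.59% did. In LNCaP it was BBC3, which encodes the BH3-only protein PUMA, with a fold of 5.54 inside the gene. Of 32 other apoptosis genes, 3 had one in LNCaP, BBC3 again among them, and 2 in PC3. CASP9, the initiator caspase of the mitochondrial pathway, was counted in both lines with folds of 8.98 and 8.44. Those summits lay 61 bp and 77 bp upstream of DNAJC16, and 2.00 kb and 1.98 kb upstream of CASP9. BMF, a BH3-only gene, had a fold of 5.30 in PC3, and BCL2, the founding inhibitor of apoptosis, a fold of 6.43 in LNCaP. METTL3 entries in PC3 lay at 6 of the 47 stress genes, 1 of the 30 p53 genes and 2 of the 32 apoptosis genes, against 11.6% of all genes. In LNCaP they lay at none of these 3 groups, against 0.389% of all genes.

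Peak lists hold no expression, so the identity of the lines could not be checked with markers. Entries were counted at 18 marker genes of luminal prostate, of basal and mesenchymal cells and of other cell types. PRMT5 entries lay at RBFOX3 in PC3, against 4.59% of all genes, and at none in LNCaP, against 3.08%. The RBFOX3 summit lay 286 kb from the nearest listed start site. METTL3 entries lay at KLK2 and RBFOX3 in PC3, against 11.6% of all genes, and at none in LNCaP, against 0.389%.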

How the data were processed

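The data are 4 peak lists, 1 per antibody and line. The submitters' processing notes name bcl2fastq 2.17, Trimmomatic 0.33, Bowtie 1.1.1, MACS2 2.1.0, ChIPseeker and build hg38. On parameters, duplicates and any shift of reads, nothing is given in the sources used here. The deposited values are the authors' caller's own: a fold (a ratio over the expected control signal), −log10 p-values and −log10 q-values, and a score that the authors deposited, which equals the −log10 q multiplied by 10 and truncated, to within 1. Read depth is unknown. Peaks were called per library with the control of that line as background, and no group has a replicate.

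Only entries on numbered chromosomes, X and Y were used, 980 for LNCaP PRMT5, 1661 for PC3 PRMT5, 173 for LNCaP METTL3 and 7453 for PC3 METTL3. Genes and promoters came from RefSeq tables of GRCh38.p14, whose primary chromosomes share coordinates with hg38, and strand came from the promoter table. All 9 genes matched the gene table and 8 the promoter table. Work was done in Python 3.11.15 with pandas 2.3.3, numpy 2.4.6 and matplotlib 3.10.9. The assignment and motif search were checked on simulated data. Named genes followed a written rule: the 9 genes, pathway genes with a PRMT5 fold of at least 5, genes sharing a summit and the 5 genes nearest to BAX. Not every gene so named is reported here. Members and lists were chosen with earlier results of these data known. No tests were run. Alternatives were other windows, gene ends without the body, any base in place of the summit, and limits on −log10 q and fold.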

Additional observations from a re-analysis of the deposited data

How the results depend on the processing

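The counts of genes with an entry were recomputed with windows of 1 kb and 5 kb, with gene ends without the body, with any base of an entry, and with entries of −log10 q of at least 3 or fold of at least 5. The count of overlaps between the PRMT5 lists was recomputed with at least 50% of both entries, with summits within 200 bp and with the same −log10 q and fold limits. Several settings could only add entries or set a limit that no entry at the 9 genes failed, so the next count does not measure stability. Of 34 recomputed counts, 33 stayed within 1.5 times the reported one. These include the LNCaP METTL3 counts, 0 throughout, and an overlap count that fell from 3 to 2. The exception was PC3 METTL3, where the window of 1 kb left 0 of the 9 genes, against 1 as reported, because the ASNS entry lies 2.70 kb from the gene. BAX, DDIT3 and DNAJB9 were counted in both PRMT5 lists under all 6 settings of the gene counts, an outcome their values fixed in advance. In both lists each had an entry with its summit within 164 bp of a gene end. The folds of these entries were at least 5.89 and their −log10 q at least 3.30. The window of 5 kb and any base of an entry can only add entries. PHLDA3 was lost with the window of 1 kb and with the fold limit, and CDKN1A with gene ends, which left 4 genes in PC3 PRMT5 each time. Overlap of at least 50% of both entries was met at BAX and DDIT3 but not at DNAJB9. No paired analysis was possible because each group had 1 library. Unknown depth limits every statement about a missing entry.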

Other observations

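None of 24 heat shock and oxidative stress genes had a PRMT5 entry in either line, where 3.08% of all protein-coding genes did in LNCaP and 4.59% in PC3. A METTL3 entry in PC3, found at 11.6% of all genes, lay at 2 of them, HSP90AA1, which encodes a cytosolic chaperone, with a fold of 3.79, and TXNRD1, which encodes thioredoxin reductase, with 5.78. BCL2 was singled out after its values were seen. Its LNCaP PRMT5 entry, at chr18:63218625-63218734 with a fold of 6.43, lay wholly inside a PC3 METTL3 entry with a fold of 6.83, their summits 1 bp apart and 101 kb from the start site. The fold and −log10 q of that PRMT5 entry, 6.43 and 3.98, were also those of the HSP90B1 and PDIA4 entries. The LNCaP PRMT5 and PC3 METTL3 lists share neither antibody, line nor control. PC3 had 3 METTL3 entries in the gene.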
